A study of Drosophila melanogaster with 2 samples.

Results

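The small heat shock genes of Drosophila melanogaster at cytological position 67B are a tight cluster of stress genes on chromosome arm 3L, and they were examined here for peaks of the tagged protein CG15073-eGFP. The 7 members are Hsp22, Hsp23, Hsp26, Hsp27, Hsp67Ba, Hsp67Bb and Hsp67Bc, chosen by name and position among 13945 protein-coding genes on the 6 main chromosome arms. A peak summit, the base at which a peak is highest, was given to a member when it lay within 500 bp of one of its annotated start sites. All summits between the outer ends of the first and last members were also recorded. Positions are on the dm6 build and count from 1.

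The study mapped by ChIP-seq, the sequencing of DNA that is crosslinked to and precipitated with a protein, where CG15073 sits on the genome. The protein carried green fluorescent protein at its C terminus in a transgenic line, and an anti-GFP antibody was used. Embryos of both sexes collected over 0 to 24 h supplied the chromatin, so the whole of embryogenesis and all tissues were mixed. The 2 biological replicates, numbered 3 and 4, form the only group, and all the embryos carried the fusion. No heat shock is mentioned in the labels, and no untagged line was analysed here. With 1 group there is no test between conditions, and the 2 replicates are shown side by side instead.

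Small heat shock proteins bind unfolding proteins without using ATP and hand them to the HSP70 machinery for refolding. In the fly, heat shock factor switches on 67B genes together after heat, from paused polymerase. Some of their promoters have GAGA repeats or TATA boxes. Several members are also made in normal development, under ecdysone or in the germ line. Hsp22 works in the mitochondrial matrix, Hsp23 and Hsp26 in the cytoplasm, and Hsp27 mainly in the nucleus. Hsp67Bc is a partner of Starvin (stv) in autophagy, whereas Hsp67Bb encodes a rhodanese-like protein rather than an alpha-crystallin protein.

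The cluster ran over 14.2 kb, 3L:9371511-9385694, with 4 members on the plus strand and 3 on the minus strand. In order they were Hsp67Bc (FBgn0001229, 3L:9371511-9372497, minus), Hsp67Bb (FBgn0001228, 3L:9372722-9374964, plus) and Hsp22 (FBgn0001223, 3L:9372931-9374964, plus). Then came Hsp26 (FBgn0001225, 3L:9376418-9377427, minus), Hsp67Ba (FBgn0001227, 3L:9377802-9379534, minus), Hsp23 (FBgn0001224, 3L:9381882-9382765, plus) and Hsp27 (FBgn0001226, 3L:9384063-9385694, plus). Hsp67Bb is listed in the annotation as CG4456 and was matched through its RefSeq synonym. It overlaps Hsp22 and shares with it the start site at 3L:9372931, so a summit near that base belongs to both.

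Only 2 places in the cluster carried a peak in the list that passed the irreproducible discovery rate (IDR) step, a method that scores how well replicates match. Here that list holds the 1445 strongest pooled peaks, and some of them rank very differently in the 2 replicates. One lay upstream of Hsp27 and the other upstream of Hsp26. The 201 bases centred on each of these 2 summits are shown on the strand of the gene, from the RefSeq Release 6 genome. The capitals run from the pooled summit to the farther of the 2 replicate summits, and so mark where the libraries placed the top of the peak. The Hsp27 window covers 3L:9383797-9383997 and the Hsp26 window 3L:9377500-9377700.
Hsp27 summit window: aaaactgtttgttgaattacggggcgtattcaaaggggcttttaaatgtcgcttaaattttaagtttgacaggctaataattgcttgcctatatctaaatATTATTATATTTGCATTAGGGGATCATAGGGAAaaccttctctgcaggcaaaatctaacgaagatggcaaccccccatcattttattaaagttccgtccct
Hsp26 summit window: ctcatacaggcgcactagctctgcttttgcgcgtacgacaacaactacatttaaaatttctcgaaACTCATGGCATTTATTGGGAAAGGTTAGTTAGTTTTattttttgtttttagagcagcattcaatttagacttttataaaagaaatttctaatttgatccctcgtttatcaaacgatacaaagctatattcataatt

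Both windows lay between genes. The 3 Hsp27 summits fell within 33 bases and the 3 Hsp26 summits within 36 bases, far less than the 410 bp over which each pooled peak was drawn. The Hsp27 window was 36.3% G and C and the Hsp26 window 31.8%, against a median of 35.3% (quartiles 31.3% and 40.8%) over all 1445 IDR windows. Both values lay between the quartiles.

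Hsp27 had the strongest peak of the cluster. Its signal, the strength the authors' peak caller gave to a peak on a scale that the sources do not explain, was 190.6 in the pooled and IDR lists, with the summit at 3L:9383897, 166 bp upstream of the start site. That was rank 222 of 1445 IDR peaks by signal (the top 15.4%). In replicate 3 the Hsp27 summit lay 134 bp upstream with signal 114.7 and rank 233 of 30000. In replicate 4 the Hsp27 summit lay 135 bp upstream with signal 74.8 and rank 231 of 30000. The peak thus stood at almost the same rank and within 1 bp of the same place in both libraries. These signals were 7.32 and 4.92 times the median of their own replicate list. The −log10 q-value of the Hsp27 peak was 3.24 pooled, 3.46 in replicate 3 and 3.02 in replicate 4. Each is a ceiling that 869 pooled, 1459 replicate 3 and 522 replicate 4 peaks share, so it does not order Hsp27 among them.

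Hsp26 had the weaker IDR peak, and its replicates differed. The pooled summit at 3L:9377600 lay 173 bp upstream of the outer Hsp26 start site (3L:9377427), with signal 76.6 and rank 1112 of 1445 (the top 77.0%), near the lower limit of the IDR list at 66.5. In replicate 3 the Hsp26 summit lay 183 bp upstream with signal 54.5 and rank 891 of 30000. In replicate 4 it lay 208 bp upstream with signal 16.0 and rank 12686 of 30000. Replicate 3 placed the Hsp26 peak in the top 2.97% of its list at 3.48 times the list median, whereas replicate 4 placed it at 42.3%, at 1.05 times the median. The −log10 q-value of the Hsp26 peak was 3.46 in replicate 3, the ceiling that 1459 peaks of that list share, and 0.0865 in replicate 4.

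The ratio of replicate 3 signal to replicate 4 signal was 1.53 for Hsp27 and 3.41 for Hsp26. Over the 1384 IDR peaks with a summit within 200 bp in both replicate lists, this ratio had a median of 1.54 and quartiles of 1.18 and 2.02. Hsp27 therefore sat in the middle, with 700 peaks above it, while only 54 peaks had a higher ratio than Hsp26. Of all 1445 IDR peaks, 5.67% had no replicate 4 partner or one ranked below that of Hsp26. Partners among the 1445 strongest of both replicates were found for 61.5% of IDR peaks, Hsp27 included and Hsp26 not. The Hsp26 peak was thus high in replicate 3 but not in replicate 4, where its partner ranked 12686. How each replicate entered the IDR call cannot be told from the lists.

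**Figure D1:**
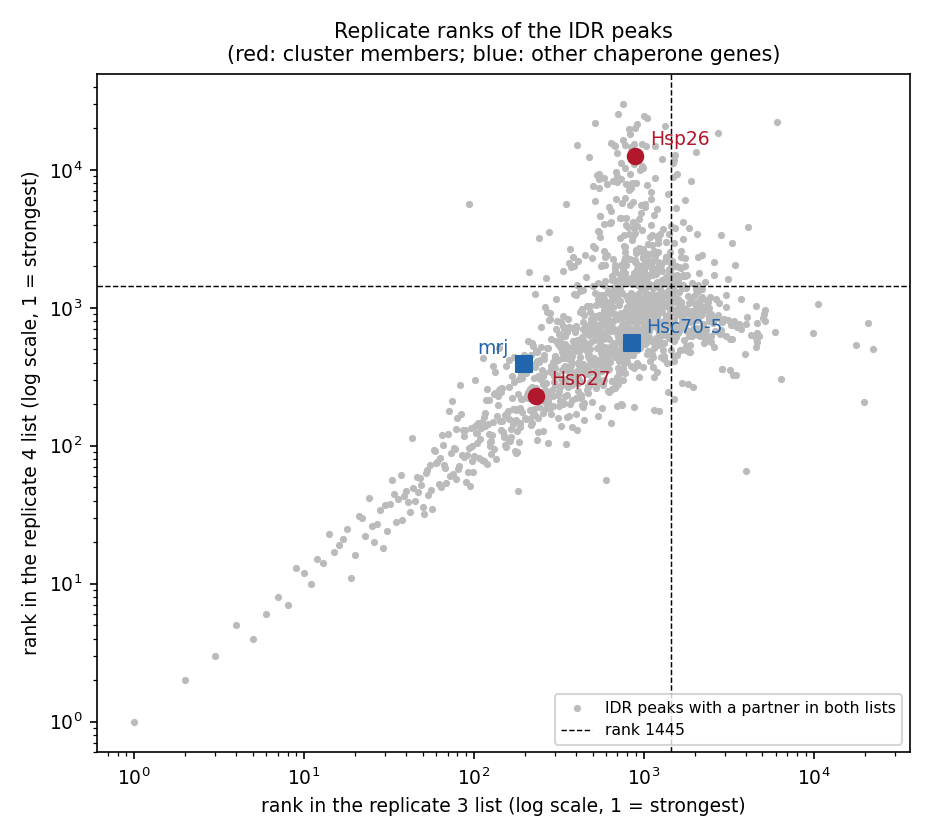
Rank of each IDR peak in the replicate 3 list (x axis, log scale) against its rank in the replicate 4 list (y axis, log scale), with 1 as the strongest; red circles are Hsp27 and Hsp26, blue squares are the other chaperone genes Hsc70-5 and mrj, and dashed lines mark rank 1445. Hsp27 lies on the main band at ranks 233 and 231, while Hsp26 lies above it at ranks 891 and 12686.

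Counted over the members, 2 of 7 (28.6%) had an IDR summit at a start site, where 6.75% of all protein-coding genes did. Among the 1445 strongest peaks of replicate 3 the count was also 2 of 7 (28.6%) against 6.53% of genes. Among the 1445 strongest of replicate 4 it was 1 of 7 (14.3%), Hsp27 alone, against 6.25% of genes. The members were chosen with earlier results of these data known, and 7 genes are few, so these shares describe the cluster and carry no test.

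The relaxed lists keep many weak peaks and mix signal with background. The pooled relaxed list of 23030 peaks had a start-site summit at 2 of 7 members (28.6%), again Hsp27 and Hsp26, against 33.6% of all protein-coding genes. The replicate 3 list reached 4 of 7 (57.1%), adding Hsp22 and Hsp67Bb, against 44.6%. The replicate 4 list had 2 of 7 (28.6%), Hsp27 and Hsp26, against 29.2%. The pooled count came from the 2 IDR peaks, so the weaker pooled peaks added 0 members, and Hsp27 at rank 231 is 1 of the 2 in replicate 4.

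The mitochondrial member Hsp22 and its overlapping neighbour Hsp67Bb had weak summits in replicate 3 alone. The strongest, at 3L:9373420, had signal 23.1 and rank 5351 and lay 489 bp downstream of the start site that both genes share. Further replicate 3 summits lay 370 bp upstream (signal 12.1, rank 26465) and 169 bp downstream (signal 16.8, rank 12492) of the inner Hsp22 start site at 3L:9373997. In replicate 4 the nearest summit to an Hsp22 start site was 3638 bp away, the one at Hsp26. The pooled list had a summit at 3L:9373489 with signal 24.0 and rank 18530 of 23030, 508 bp upstream of the inner Hsp22 start site and so just outside the limit.

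The cytoplasmic member Hsp23 also fell just outside. Its pooled summit at 3L:9382401, inside the coding sequence, lay 519 bp downstream of the start site with signal 27.5 and rank 12539. In replicate 3 the Hsp23 summit lay 515 bp downstream with signal 22.5 and rank 5747. The nearest replicate 4 summit, at 3L:9383144 with signal 18.3 and rank 7633, was 1262 bp downstream of the Hsp23 start and 919 bp upstream of Hsp27. None of these Hsp23 and Hsp22 summits entered the IDR list, so moving the 500 bp limit would add them only to counts from the relaxed lists.

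Hsp67Bc and Hsp67Ba had no summit within 500 bp in any list. The nearest to the Hsp67Bc start was 992 bp away in the pooled list, 923 bp in replicate 3 and 5138 bp in replicate 4. The nearest to the Hsp67Ba start was the Hsp26 peak in every list, between 1899 and 1934 bp away. The pooled summit of that peak lies in the 374 bp between Hsp26 and the 3′ end of Hsp67Ba, 202 bp from that end. The peak as drawn, 3L:9377395-9377804, is wider than this gap and reaches both genes. The Hsp67Ba promoter is on the far side of its gene from the peak.

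**Figure D2:**
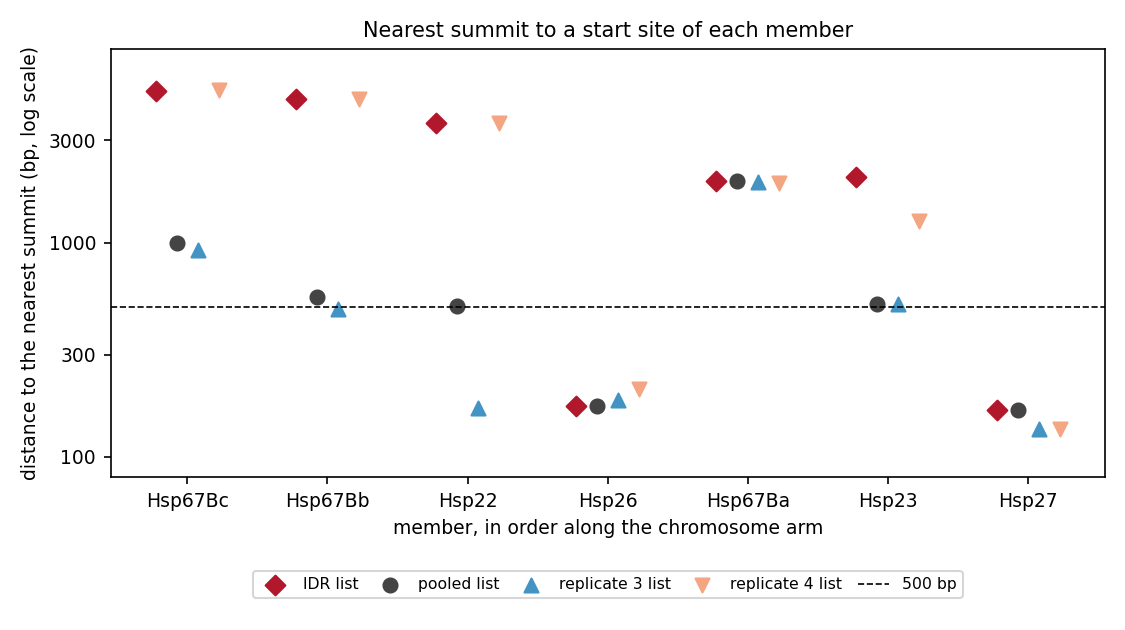
Distance from each member's closest start site to the nearest summit (y axis, bp, log scale) in the IDR, pooled, replicate 3 and replicate 4 lists, for the 7 members in chromosomal order; the dashed line is 500 bp. Hsp26 and Hsp27 lie below the line in every list, Hsp22 and Hsp67Bb in replicate 3 alone, and Hsp23 sits just above it at 519 and 515 bp in the pooled and replicate 3 lists.

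Along the DNA, the 14.2 kb held 2 IDR summits, 4 pooled summits, 6 replicate 3 summits and 3 replicate 4 summits. When the 6 arms were cut into 9435 windows of the same length, 2.41% held at least 2 IDR summits, 27.6% held at least 4 pooled summits, 22.0% held at least 6 of replicate 3 and 58.9% held at least 3 of replicate 4. The 2 IDR summits lay 6297 bp apart. No IDR summit lay within 5000 bp of either side of the cluster.

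The other genes with start sites between the outer members had none of the peaks. CG4461, a further gene for an alpha-crystallin protein that lies between Hsp22 and Hsp26, had 0 start-site summits in all 4 lists. The antisense RNA gene asRNA:CR43481, which overlaps the Hsp67Ba promoter, likewise had 0 in all 4 lists. Next to the cluster, a weak pooled summit at 3L:9371389 (signal 33.3, rank 6843) lay 0.12 kb beyond the end of Hsp67Bc and 151 bp upstream of Fdx1, a ferredoxin gene, and it was not kept by the IDR step.

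**Figure D3:**
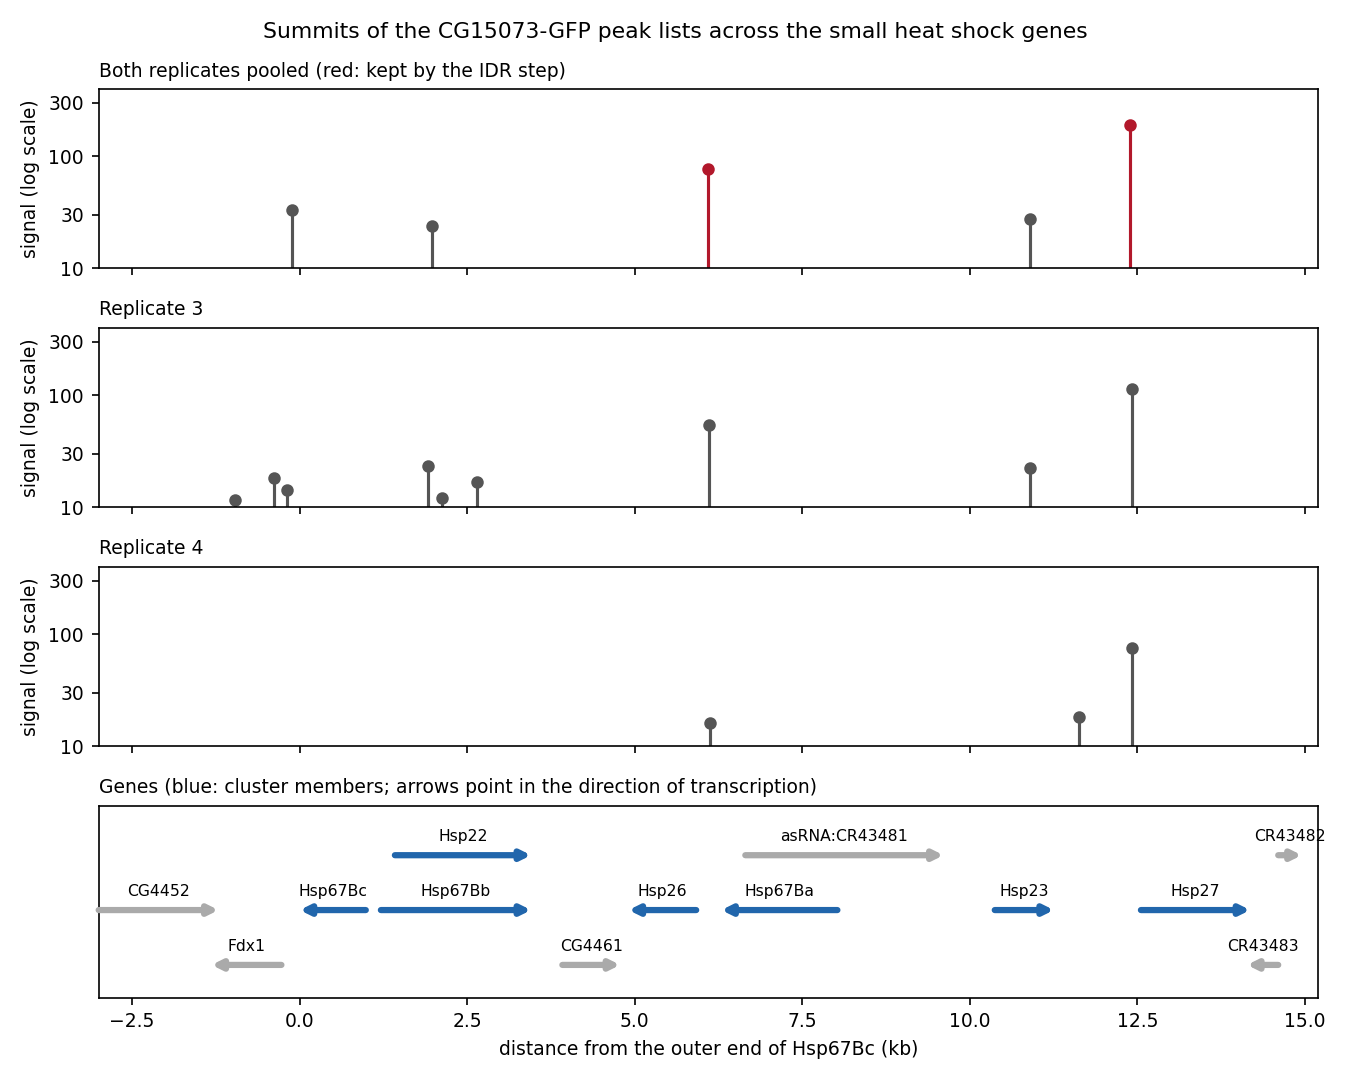
Signal of each summit (y axis, log scale) in the pooled, replicate 3 and replicate 4 lists along the cluster (x axis, kb from the outer end of Hsp67Bc), above the annotated genes; red marks the summits kept by the IDR step, blue arrows are the members and grey arrows other genes. The Hsp27 stem is the tallest in every panel (190.6, 114.7 and 74.8). The Hsp26 stem is at 54.5 in replicate 3 and 16.0 in replicate 4, and signals of different lists share no stated scale.

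The nearest IDR summits outside were far off on the left and closer on the right. To the left the next was at 3L:9057947 (signal 86.2, rank 893), in an intron of Argk1, which encodes arginine kinase, 313564 bp from the cluster. To the right the next was at 3L:9423056 (signal 229.7, rank 175), 37362 bp away, in an intron of Atat, a tubulin acetyltransferase gene, and 197 bp upstream of aay, a phosphoserine phosphatase gene. The stretch of 320 kb between the Argk1 and Hsp26 summits holds 32 protein-coding genes. Of 1439 gaps between neighbouring IDR summits on an arm, 55 (3.82%) were at least as long, and the median gap was 39208 bp.

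Sequence features that the choice of members did not use were read at the promoters, from 250 bases before to 50 bases after each start site, together with those of 19253 protein-coding start sites. A TATA box (TATAAA) on the strand of the gene, starting between 32 and 24 bases upstream, was found at a start site of 5 of 7 members (71.4%) and of 7.14% of all protein-coding genes. By start site it was at 5 of the 9 distinct member start sites (55.6%) and at 5.16% of all 19253. It began 28 bases upstream in Hsp67Bc, Hsp22, Hsp26 and Hsp27 and 27 bases upstream in Hsp23. In Hsp22 and Hsp26 it belonged to the inner start sites, 3L:9373997 and 3L:9377375. Bases 35 to 6 upstream of those start sites are shown to compare the spacing, on the strand of the gene, with the TATA box in capitals. The stretches are 3L:9372503-9372532, 3L:9373962-9373991, 3L:9377381-9377410, 3L:9381847-9381876 and 3L:9384028-9384057, in the order given.
Hsp67Bc core promoter: ccgtctcTATAAAagggcgcagacaaaccg
Hsp22 core promoter: ccaagagTATAAAtagccaccggttggaca
Hsp26 core promoter: cagcgggTATAAAagcagcgtcgcttgacg
Hsp23 core promoter: agcggttgTATAAAtaaccggcactttcgt
Hsp27 core promoter: gcgtcagTATAAAagccggcgtcaacgtcg

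The TATA box was thus shared by members with a strong peak (Hsp27), a peak in mainly 1 replicate (Hsp26), weak peaks (Hsp22) and none within 500 bp (Hsp23 and Hsp67Bc). Hsp67Ba and Hsp67Bb had none in that place. The IDR summits lay well upstream of the TATA box in that place, 166 bp before the Hsp27 start and 173 bp before the outer Hsp26 start. The Hsp26 box in that place belongs to the inner start site. Outside that place, the Hsp26 summit window itself held TATAAA at its bases 139 to 144, and TTTATA, the same letters on the other strand, at bases 137 to 142. Of all IDR windows 34.3% held a TATA box match.

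GAGA elements (GAGAG on either strand, the repeat that GAGA factor binds) were uneven among the members. There were 6 at the Hsp26 start sites and 5 at the inner Hsp22 start site, 1 at Hsp23, 1 at the start site that Hsp22 and Hsp67Bb share, and 0 at Hsp27, Hsp67Bc and Hsp67Ba. Matches may overlap each other. Of all promoters 33.1% held at least 1, 3.63% at least 5 and 2.65% at least 6. Of the 201-base IDR windows 23.5% held at least 1, but neither the Hsp27 nor the Hsp26 window did. Lacking these letters was thus the common case among IDR windows, and the 2 member windows did not stand out by it. The promoters of the 2 genes differed. The absence is stated for the windows alone, and the whole peaks are wider. The 6 Hsp26 matches lay between the window and the outer start site, inside the IDR peak drawn from 3L:9377395 to 3L:9377804. The full width of the peaks was not searched.

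The full heat shock element, 3 alternating blocks of the heat shock factor motif with no mismatch allowed, was in 0 member promoters, in 0.421% of all promoters and in 0.346% of IDR windows. A shorter pair of such blocks (GAANNTTC or TTCNNGAA), which was added after the data were seen, was in 15.8% of promoters and 10.4% of IDR windows. In the Hsp26 summit window it occurred as TTCTCGAA, directly before the capitals, and downstream of them as GAAATTTC. A further match made 3 for the outer Hsp26 start site. The Hsp27 summit window had 0. Among the other promoters Hsp22 had 2 matches at the inner start site and Hsp23 had 2. Hsp67Bc and the outer Hsp67Bb start site had 1 each, which is the same stretch of bases between those start sites. Hsp27 and Hsp67Ba had 0. A match is a description and not a site, and no match says only that these letters are not in the window.

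Other motifs gave no member match. The DREF element (TATCGATA) was in 0 member promoters and in 7.98% of all promoters, the CTCF core (AGNNGGCGC) in 0 and 2.89%, and the homeodomain core (TAATTA) in 0 and 18.9%. Both strands were read for each of them.

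The proteins of the 2 members with IDR peaks were closely related, but so were those of a member without one. Translated from the annotated coding sequence, Hsp26 has 208 residues and Hsp27 213, and 52.6% of aligned positions were identical. Hsp23, with 186 residues and no start-site peak, was 56.0% identical to Hsp26 and 54.4% to Hsp27. Hsp67Ba is the longest at 445 residues and was 53.4% identical to Hsp27 over 208 aligned positions. Hsp22 (174 residues) and Hsp67Bc (199 residues) reached at most 41.7% and 45.7% with another member. Hsp67Bb, at 111 residues, was 21.1% to 31.5% identical to the other members, the lowest values in the cluster.

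Among all IDR peaks at protein-coding start sites, by the same 500 bp limit, the ones nearest to Hsp27 in pooled signal belonged to genes of other kinds. Just above it stood Cortactin and AnxB9, which share 1 peak (192.4, rank 217), pds5 and Mppe (191.5, rank 219) and CG1142 (191.0, rank 221). Just below it stood Bulli and CG10147 (189.9, rank 223), wde (189.7, rank 224) and DAAM (189.4, rank 225). Cortactin is an actin-binding protein, pds5 a cohesin regulator, wde a cofactor of a histone methyltransferase and DAAM a formin. The replicate ranks of these 6 peaks ran from 172 to 362 in replicate 3 and from 163 to 1821 in replicate 4, with Cortactin the lowest in replicate 4, and Hsp27 lay inside both ranges at 233 and 231.

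Of 31 other heat shock and chaperone genes counted (the HSP70, HSP90 and HSP60 families, co-chaperones, Hsf and the heat shock RNA gene lncRNA:Hsromega), 2 had an IDR start-site summit, against 6.75% of all genes. The first was mrj, which encodes a DNAJ co-chaperone, at 2R:16206529 inside its own intron, with signal 183.7 and rank 238, and ranks 196 and 388 in replicates 3 and 4. The second was Hsc70-5, the mitochondrial HSP70, at 2R:14256353, 161 bp upstream of the start site, with signal 99.4 and rank 680, and ranks 851 and 555. Both were thus among the 1445 strongest of each replicate, as Hsp27 was and Hsp26 was not.

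The classical heat-inducible HSP70 genes were without start-site peaks. Hsp70Aa, Hsp70Ab, Hsp70Ba, Hsp70Bb, Hsp70Bbb and Hsp70Bc, the inducible HSP70 copies, and Hsp68 had no summit within 500 bp in any list. Of all protein-coding genes 6.75% had one in the IDR list, 33.6% in the pooled, 44.6% in the replicate 3 and 29.2% in the replicate 4 list. Having no IDR summit is thus the common case, and the difference was not tested. The Hsp70 copies are nearly identical in sequence, and how the authors treated reads that map to several places is not given in the sources used here. Hsf, the gene of heat shock factor itself, also had none in any list. Hsp68 did have an IDR summit further in, at 3R:24056670, 640 bp downstream of its start site, with signal 82.4 and rank 965, and stv, the Hsp67Bc partner, had one 602 bp upstream at 3L:13476939 with signal 90.3 and rank 816. These last 2 genes were named after their values were seen.

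Several chaperone genes stood just under the IDR limit in the pooled list. Within 500 bp of a start site, Hsp60A, the mitochondrial chaperonin, had signal 60.3 and rank 1709, and stv had a second peak of signal 58.8 and rank 1776. The heat shock RNA gene lncRNA:Hsromega had signal 58.6 and rank 1789, and Hsp83, the cytosolic HSP90, had signal 58.6 and rank 1792. Gp93, the HSP90 of the endoplasmic reticulum, had signal 55.4 and rank 1993. In replicate 3 the ranks were 1913 for Hsp60A, 1775 for stv, 2067 for lncRNA:Hsromega, 1449 for Hsp83 and 4007 for Gp93. In replicate 4 Hsp83 had rank 1727 and lncRNA:Hsromega rank 23266. Hsp60A, stv and Gp93 had no start-site summit in replicate 4. Counted over the 2000 strongest pooled peaks, a number chosen after these ranks were seen, 7 of the 31 had a start-site peak, against 8.96% of all protein-coding genes. Over the same 2000 peaks the cluster still had 2 of 7.

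The other alpha-crystallin genes had no IDR peak at a start site. Of l(2)efl, CG4461, CG7409, CG13133 and CG14207, 0 of 5 had a start-site summit in the IDR, pooled or replicate 4 list, where 6.75%, 33.6% and 29.2% of all protein-coding genes did. In replicate 3, CG14207 had a weak summit 391 bp downstream of the start site (signal 21.6, rank 6487). With 5 and 7 genes the difference from the 2 of 7 members was not tested.

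**Figure D4:**
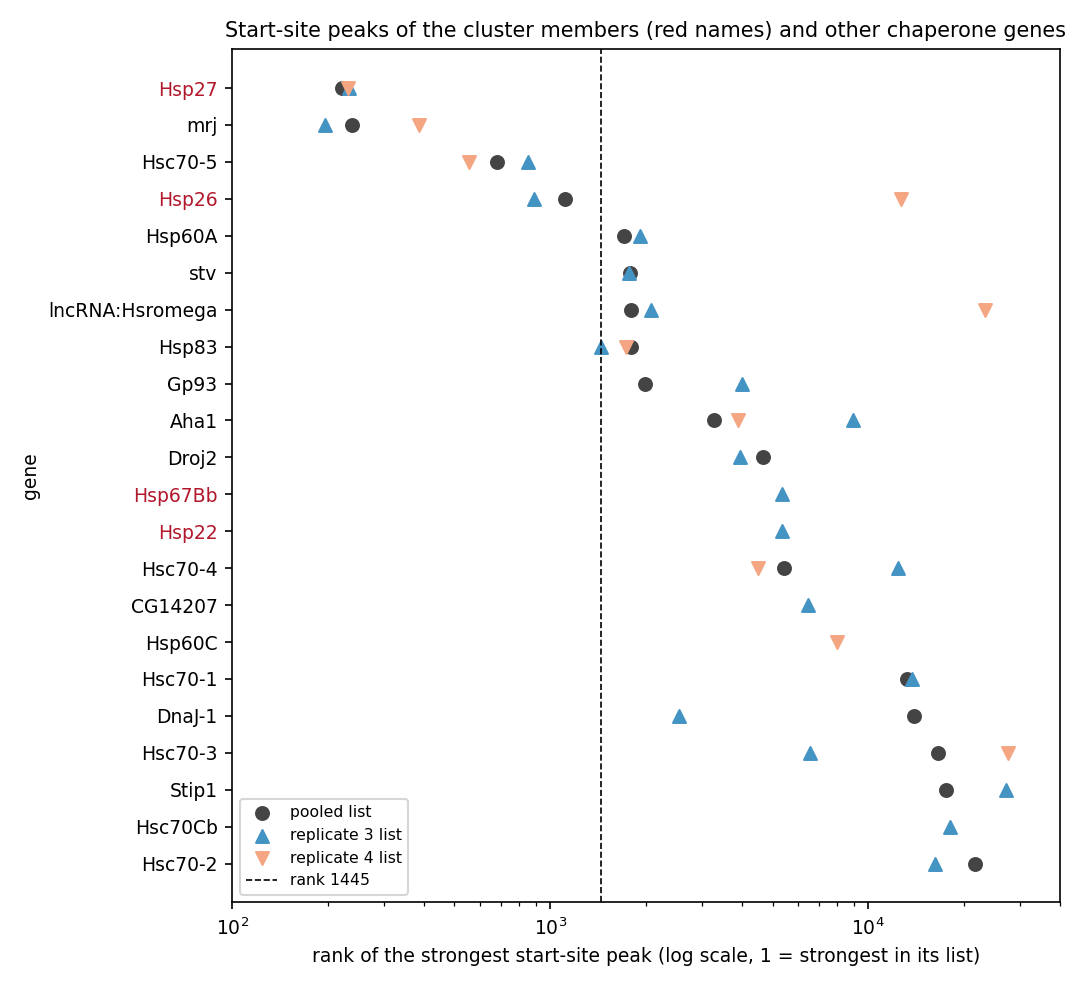
Rank of the strongest summit within 500 bp of a start site (x axis, log scale, 1 as the strongest) in the pooled, replicate 3 and replicate 4 lists, for the 22 of 43 genes with at least 1 such summit; red names are cluster members and the dashed line is rank 1445. Hsp27, mrj and Hsc70-5 have all 3 points left of the line, and Hsp26 has its replicate 4 point at 12686.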

How the data were processed

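Chromatin of the 2 replicates was precipitated with an anti-GFP antibody, per the labels. The authors deposited narrow peak lists on dm6 for each replicate, for both pooled and after an IDR step, per the texts deposited beside the lists. Each deposited peak has a score, called signal here, whose scale is not given, and a deposited −log10 q-value; peaks were ranked by signal within each list, and signals of different lists share no stated scale. The depth is unknown, and the aligner, caller and IDR threshold are not stated in the labels or texts, so no counting error can be attached to a signal. The control was not analysed here, and the dm3 lists were not used here.

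Peaks have nearly fixed widths (410 bp in 99.1% of pooled peaks), so only summits were used. All 1445 IDR peaks are in the pooled list with equal signal, 6.27% of it. Partners were the nearest summits within 200 bp. Start sites came from Ensembl release 115 (BDGP6.54), without transposable elements, and sequence from the RefSeq Release 6 genome. Proteins were translated from the coding sequence and aligned end to end with Biopython 1.88 (BLOSUM62, gap opening 11, extension 1). Tables were made with Python 3.11.15, pandas 2.3.3 and numpy 2.4.6, and peak assignment was tested on simulated data. The members, the gene lists (37 genes asked for, 36 matched) and the motifs were chosen with earlier results of these data known. Named are all members with their strongest start-site summits, other genes inside the cluster, the nearest IDR summits on either side, listed genes with an IDR summit, and the 3 start-site peaks above and 3 below Hsp27; genes named outside this rule are marked so or come from the gene lists.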

Additional observations from a re-analysis of the deposited data

How the results depend on the processing

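Of 42 alternatives 30 left the value within 1.5 times. The 30 include every alternative for the other alpha-crystallin genes, whose count was 0 at each setting, so a ratio has no meaning there. Settings that only narrowed the limits could not raise that 0, and a wider limit for partners could not lose one. The share of 30 in 42 is therefore no measure of stability. Members with an IDR summit stayed at 2 with limits of 250 and 1000 bp, but were 1 (Hsp27) among the 722 strongest IDR peaks. Leaving out a replicate meant reading the other replicate's own list, cut to as many of its strongest peaks as the IDR list holds. The IDR step was not run again. Members were then 2 in replicate 3 and 1 (Hsp27) in replicate 4. These are the counts already given in the Results, so they add no further check. IDR summits inside the cluster were likewise 1 among those 722. Summits inside the cluster among the strongest peaks of a single replicate were 2 in replicate 3 and 1 in replicate 4. Pooled summits inside were 7 with limits moved outward by 5000 bp and 2 among pooled peaks above the list median. Of the 31 other chaperone genes, those with an IDR summit were 1 at 250 bp and 4 at 1000 bp. They were 4 by overlap of the interval and 1 from the outer 5′ end of the gene alone. The share of all genes at these 4 settings is not given here, so these counts have no background. In the relaxed pooled list the count was 15, against 33.6% of all protein-coding genes. Over the 2000 strongest pooled peaks, a number chosen after seeing the data, it was 7, against 8.96%. The rank of Hsp27 was 222 pooled, and 233 and 231 in the replicate 3 and replicate 4 lists themselves. No paired analysis was possible because the study has 1 group. The limits are 2 replicates, unknown depth, and members and lists chosen with results known.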
